A study of Mus musculus with 4 samples.

Results

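A group of 10 heat shock chaperones and co-chaperones, proteins that bind unfolded chains and help them to fold, was followed through single-cell RNA sequencing of immune cells from mouse colon tumors. The genes were Hspa1a, Hspa1b, Hspb1, Hspa8, Hsp90aa1, Hsph1, Dnajb1, Hspe1, Hspd1 and Bag3, which made 10 of the 19059 genes in the probe set, and all 10 were detected in all 4 libraries. They were taken as a named list because Hspa1a and Hspa1b were already known to be low in the combination library, and the question was whether the other chaperones followed. The levels of Hspa1a and Hspa1b are therefore a description of why the genes were chosen. With 1 library per group no test between groups was possible for any gene, and every interval below covers counting error only.

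The cells were live CD45+ cells sorted from MC38 tumors, a transplanted colon carcinoma line, grown in C57BL/6 mice whose CTLA-4 gene carries human sequence (B-hCTLA-4, Biocytogen). All 4 groups shared this genotype, were given the same number of tumor cells, were treated 3 times from a tumor volume of about 100 mm3 and were collected on day 8, and each library pooled the tumors of 11 mice, so the spread between mice could not be seen. The isotype control received human IgG1 at 10 mg/kg. The combination received ipilimumab, a human IgG1 antibody against human CTLA-4, at 10 mg/kg together with AT130-2, an antibody against mouse FcgRII (CD32), at 20 mg/kg. For the 2 libraries of single antibodies the title and the treatment entry name opposite antibodies. They are grouped here by title, as the CTLA-4-titled and the FcgRII-titled library, and nothing below draws a direction from which antibody each received. Doses, the number of mice and the day are those of the sample records, and the published methods give other values for some of them. All 4 libraries carry the same batch entry.

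Heat shock chaperones are made by all cells and form several families. HSP70 proteins bind short hydrophobic stretches of unfolded chains, J-domain proteins such as Dnajb1 hand substrates to them, and the HSP110 protein Hsph1 and Bag3 help them to exchange nucleotide. Hspa8 is made constantly, whereas Hspa1a, Hspa1b, Hspb1 and Dnajb1 are strongly induced by heat and other proteotoxic stress, through the transcription factor HSF1, which binds inverted repeats of the letters GAA upstream of its target genes. Handling of tissue at 37 degrees during enzymatic dissociation can itself induce these genes, and the tumors were digested with enzymes at that temperature before sorting.

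The stretches upstream of the start sites are shown because HSF1 binding there is the best known feature that these genes share. For 8 of the 10 genes an upstream stretch was in the RefSeq table (build GRCm38.p6), and 250 bases before the start were searched on both strands for 2 inverted GAA repeats, GAANNTTC and TTCNNGAA. At least 1 of these repeats was found in 6 of the 8 genes, against 14.5% of the 27025 genes of the table. The 6 are not independent, since Hspa1a and Hspa1b are near copies and Hspd1 and Hspe1 face away from each other across 1 shared stretch. Below, capitals mark the matches in the stretches chr17:34972157-34972406 on the minus strand (Hspa1a), chr17:34959239-34959488 on the minus strand (Hspa1b), chr5:135887669-135887918 on the plus strand (Hspb1), chr5:149636316-149636565 on the minus strand (Hsph1) and chr1:55087898-55088147 on the plus strand (Hspe1), each written 5′ to 3′.
Hspa1a: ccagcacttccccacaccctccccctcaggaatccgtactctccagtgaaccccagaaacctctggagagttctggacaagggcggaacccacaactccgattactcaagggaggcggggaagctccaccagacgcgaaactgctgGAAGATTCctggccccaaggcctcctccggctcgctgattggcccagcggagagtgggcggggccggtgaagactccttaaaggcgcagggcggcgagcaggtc
Hspa1b: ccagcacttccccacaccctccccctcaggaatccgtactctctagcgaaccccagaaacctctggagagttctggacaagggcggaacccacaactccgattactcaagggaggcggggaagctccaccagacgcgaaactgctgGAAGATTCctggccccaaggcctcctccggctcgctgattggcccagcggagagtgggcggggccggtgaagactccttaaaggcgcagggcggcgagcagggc
Hspb1: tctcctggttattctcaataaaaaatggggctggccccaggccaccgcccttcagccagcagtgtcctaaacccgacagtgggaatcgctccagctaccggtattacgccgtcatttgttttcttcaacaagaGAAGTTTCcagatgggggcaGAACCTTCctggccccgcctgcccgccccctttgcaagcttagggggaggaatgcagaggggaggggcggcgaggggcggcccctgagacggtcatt
Hsph1: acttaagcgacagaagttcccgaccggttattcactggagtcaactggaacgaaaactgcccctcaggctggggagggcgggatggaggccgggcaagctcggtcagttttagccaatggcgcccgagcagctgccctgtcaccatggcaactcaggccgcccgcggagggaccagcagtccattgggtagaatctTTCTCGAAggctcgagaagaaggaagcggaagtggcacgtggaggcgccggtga
Hspe1: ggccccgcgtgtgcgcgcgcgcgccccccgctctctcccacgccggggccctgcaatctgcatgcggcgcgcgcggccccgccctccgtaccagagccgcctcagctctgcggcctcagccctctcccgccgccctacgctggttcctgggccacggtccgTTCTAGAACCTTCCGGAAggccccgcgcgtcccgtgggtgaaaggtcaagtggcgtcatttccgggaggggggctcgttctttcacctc
The stretches of Hspa1a and Hspa1b were identical at 247 of 250 bases, and their match began 104 bases before the start site of each. Counted from 1 at the 5′ end with the Hspa1a base first, they differed by C44T, T47C and T249G, none of which touched the match. Hspb1 had 2 separate matches, 117 and 97 bases before the start, and Hsph1 had 1, 54 bases before. Hspe1 had 3 overlapping matches, at 89, 84 and 79 bases, which Hspd1 shares in its stretch chr1:55087933-55088182. Another Hspd1 stretch, chr1:55088244-55088493, had 0 matches. The 8 genes had 11 stretches, and a gene was counted where any of its stretches held a match. A longer run of 3 alternating GAA units, TTCNNGAANNTTC or GAANNTTCNNGAA, stood in Hspe1 and Hspd1 and in 0.514% of the genes of the table. In the stretches of Dnajb1 and Bag3 neither repeat was found. A match is a description of the letters and does not show binding.

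The libraries held 129151823 to 196362818 UMIs (unique molecular identifiers, each counting 1 captured probe pair), and no full cell barcode was shared between them. After filters 7741, 6046, 5779 and 7219 cells remained in the isotype control, CTLA-4-titled, FcgRII-titled and combination libraries, and all lists of 4 values below keep this order. Clusters were built with the 10 chaperones and the other folding and stress genes left out of the features, and were called by markers. Macrophage-like cells made up 16487 of the 26785 cells and monocyte-like cells 2590. Although the cells were sorted for CD45, 346 cells carried markers of fibroblasts, endothelium or tumor cells. Another 2833 cells carried markers of both lymphocytes and macrophages. Levels are UMIs of a gene per 1000000 UMIs of the library or class (CPM), and because each gene is read by its own probes they are compared within a gene only. A gene is called lower or higher where 2 levels differ by at least 1.5-fold.

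Hspa1a and Hspa1b, the stress-inducible HSP70 genes, lie close to each other on chromosome 17 (chr17:34969359-34972156 and chr17:34956429-34959238, mm10). Hspa1a stood at 429, 323, 354 and 78.6 CPM in the 4 libraries. Hspa1b stood at 537, 371, 435 and 100.5 CPM. The combination was thus the low library for both, with 3 libraries of similar level beside it. Hspa1a was 5.45-fold lower in the combination than in isotype control (ratio 0.183, 95% interval 0.180 to 0.187), and 4.11-fold and 4.50-fold lower than in the CTLA-4-titled and FcgRII-titled libraries. For Hspa1b the same ratios to the 3 libraries were 0.187, 0.271 and 0.231. The single-antibody libraries were below isotype control as well, by less than 1.5-fold (Hspa1a 0.754 and 0.825, Hspa1b 0.691 and 0.809). The coding sequences of the pair are 99.4% identical, with 8 mismatched bases, so the division of UMIs between them is uncertain. Hspa1a took 44.4%, 46.5%, 44.8% and 43.9% of the UMIs of the pair, so the 2 records kept nearly the same balance in all libraries.

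Hspb1, the small heat shock protein HSP27 that holds unfolded proteins without ATP (chr5:135887919-135889563), followed the HSP70 pair. It stood at 39.6, 22.4, 27.4 and 5.55 CPM, from 6122, 2561, 3515 and 965 UMIs. Against isotype control the combination stood at a ratio of 0.140 (0.131 to 0.150), a 7.13-fold lower level, and the ratios to the CTLA-4-titled and FcgRII-titled libraries were 0.247 and 0.202. Hspb1 was also the only chaperone past 1.5-fold between a single-antibody library and isotype control, being 1.76-fold lower in the CTLA-4-titled library. Among the 9058 genes with at least 10 CPM in the combination or isotype control, ordered from the lowest ratio, Hspb1 was in place 2, Hspa1a in place 4 and Hspa1b in place 7. Hspb1 passed that minimum through isotype control only, and Hspa1a and Hspa1b had been chosen as low. These places are therefore a description.

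The chaperones of the HSP110 and HSP90 families came next, at a much smaller difference. Hsph1, the HSP110 protein that helps HSP70 to exchange nucleotide, stood at 96.3, 91.8, 86.7 and 60.4 CPM, a ratio of 0.627 (0.612 to 0.643) between the combination and isotype control. Hsp90aa1, the inducible form of HSP90, which matures kinases and steroid receptors, stood at 284, 273, 281 and 194 CPM, a ratio of 0.683 (0.673 to 0.693). In both genes the combination was the lowest library and the other 3 were close to each other. Hsph1 lay just inside the 1.5-fold limit against isotype control, at 1.59-fold, and Hsp90aa1 just outside, at 1.46-fold. Their places in the order of 9058 genes were 172 and 259. Both ratios rested in part on 1 macrophage-like cluster described below, without which they were 0.772 for Hsph1 and 0.781 for Hsp90aa1, so that Hsph1 was then outside the limit. Under 4 other alternatives Hsp90aa1 was inside the limit. It was at 0.616 as a mean over cells, 0.653 standardized by class, 0.665 standardized by cluster and 0.643 without the clusters of mixed, stromal or tumor cells.

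The other 5 chaperones differed less. Hspa8, the HSP70 protein made constantly, stood at 951, 984, 995 and 919 CPM, a ratio of 0.967 (0.960 to 0.974), and held place 5122 of 9058. Its level thus lay between 919 and 995 in all 4 libraries, while its inducible relatives differed by 5.45-fold and 5.35-fold. Dnajb1, the J-domain partner of HSP70, stood at 98.4, 92.9, 81.5 and 81.3 CPM, so the combination equalled the FcgRII-titled library (ratio 0.997, 0.972 to 1.023). Bag3, a co-chaperone that sends clients of HSP70 to autophagy, stood at 84.4, 78.0, 84.7 and 70.2 CPM.
The mitochondrial chaperonin Hspd1 (HSP60) stood at 102, 112, 116 and 91.2 CPM, and its lid Hspe1 (HSP10), transcribed from the same stretch on chromosome 1, at 95.3, 96.8, 103 and 73.0. Against isotype control the ratio was 0.893 (0.873 to 0.913) for Hspd1 and 0.767 (0.748 to 0.785) for Hspe1. Both were lowest in the combination, Hspe1 by more.

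**Figure D1:**
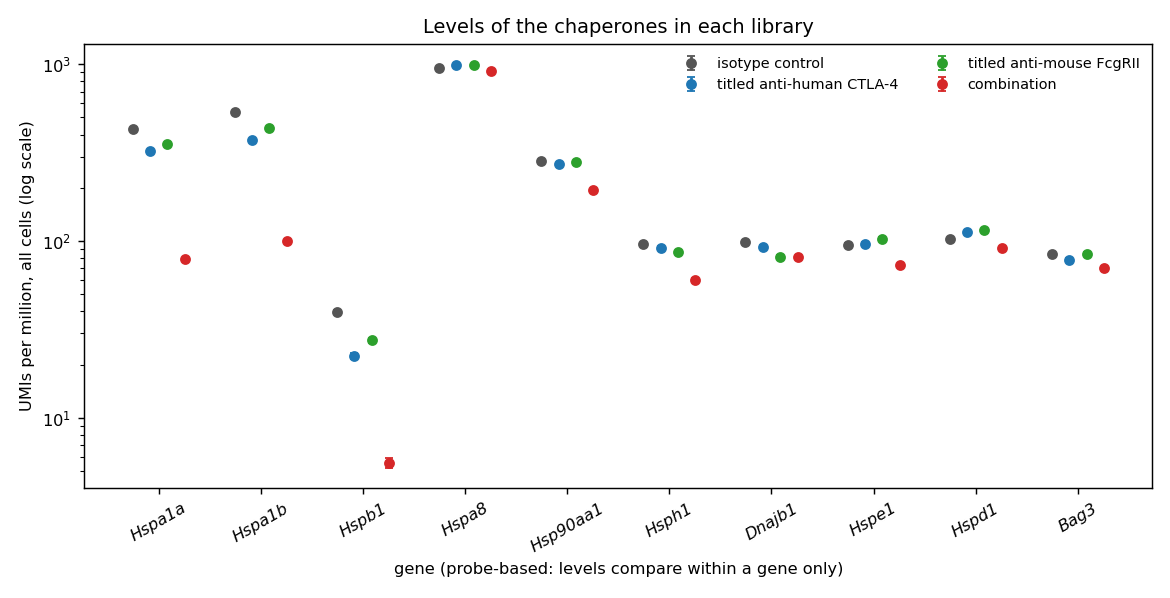
Levels of the 10 chaperones in each library, in CPM over all cells on a log axis, with 1 point per library and gene. The combination point lies far below the other 3 for Hspa1a, Hspa1b and Hspb1 and close to them for Hspa8, Dnajb1, Hspd1 and Bag3.

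Over all cells 4 of the 10 chaperones (Hspa1a, Hspa1b, Hspb1 and Hsph1) were lower in the combination than in isotype control and 0 were higher, where 2.5% of the 9058 genes were lower and 3.8% higher. At 2-fold the count was 3 of 10, where 0.651% of genes were lower. Hspa1a and Hspa1b led to the choice of the list, so counts that include them, here and below, are a description. Among the other 8 genes Hspb1 and Hsph1 were lower, and at 2-fold Hspb1 alone. Against the CTLA-4-titled library 4 of 10 were lower (2.48% of genes), and against the FcgRII-titled library 3 of 10 (4.25%). Between the single-antibody libraries and isotype control the counts were 1 of 10 (0.274%) and 0 of 10 (2.84%), in a comparison that shares its isotype library with the first. All 10 chaperones had a log2 ratio below 0 in the combination against each of the other libraries, but the share of all genes below 0 was not counted. The median over all genes was below 0 too, and Hspa8 at −0.05 against isotype control lay above it. Dnajb1 against the FcgRII-titled library was at −0.00, with an interval of −0.04 to 0.03. The size was thus uneven, and the sign of 2 chaperones against isotype control depended on the setting. Hspa8 was at 0.04 with median-of-ratios scaling and 0.03 without the Ctsk-led macrophage-like cluster described below, and Bag3 was at 0.01 without the top 10% of cells by chaperone share. The median log2 ratio of the 8 genes other than Hspa1a and Hspa1b was −0.33 against isotype control, −0.35 against the CTLA-4-titled and −0.42 against the FcgRII-titled library, beside −0.08, −0.07 and −0.08 over all genes. For the CTLA-4-titled and FcgRII-titled libraries against isotype control the same median was −0.06 and −0.00. A level summed over a library does not tell fewer cells with the RNA from less RNA in each, and both are taken up below.

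Among genes of the other folding lists that reached 10 CPM in either library, 0 were past 1.5-fold between the combination and isotype control. Of all 9058 genes 2.5% were lower and 3.8% higher. A count of 0 in lists this short is near those shares, and is not read as a contrast with the 10 chaperones. Of 34 other cytosolic chaperones and co-chaperones 28 reached 10 CPM in either library, 0 were lower and 0 were higher in the combination, and their median log2 ratio was −0.04. The ends of that list were Dnaja1, another J-domain partner of HSP70, at −0.35 (142, 136, 138 and 112 CPM), and Dnajb2 at 0.35 (12.8, 15.9, 15.1 and 16.3). The 8 subunits of TRiC, the ring that folds actin and tubulin, had a median of −0.06, between Cct4 at −0.22 and Cct7 at 0.04. The 10 other mitochondrial chaperones and proteases had a median of 0.04, between Grpel2 at −0.20 and Htra2 at 0.21, with 0 past the limit. The 19 genes of the endoplasmic reticulum, where a separate stress pathway acts, had a median of 0.02, between Dnajb9 at −0.49 and Creld2 at 0.35, again with 0 past the limit. Against the CTLA-4-titled and FcgRII-titled libraries the median of the cytosolic list was −0.11 and −0.15, with 1 and 0 genes lower, and that of TRiC −0.16 and −0.28 with 0 lower in either. The 1 gene was Hspb8, a small heat shock protein that works with Bag3, at 5.25, 11.8, 10.6 and 7.25 CPM.

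Of 13 heat shock factors and regulators 11 were in the probe set and 10 reached the minimum. Rgs2, a regulator of G protein signaling that is induced by stress, was lower (log2 ratio −1.09, from 269, 216, 235 and 126 CPM), and Hmox1, the heme oxygenase induced by oxidative stress, was higher (0.62, from 861, 1191, 1078 and 1321). Hsf1 itself stood at 40.3, 43.5, 41.9 and 40.8 CPM, a ratio of 1.01 (0.977 to 1.046). The transcript of the factor was therefore level in all 4 libraries, which says nothing of its activity.

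**Figure D2:**
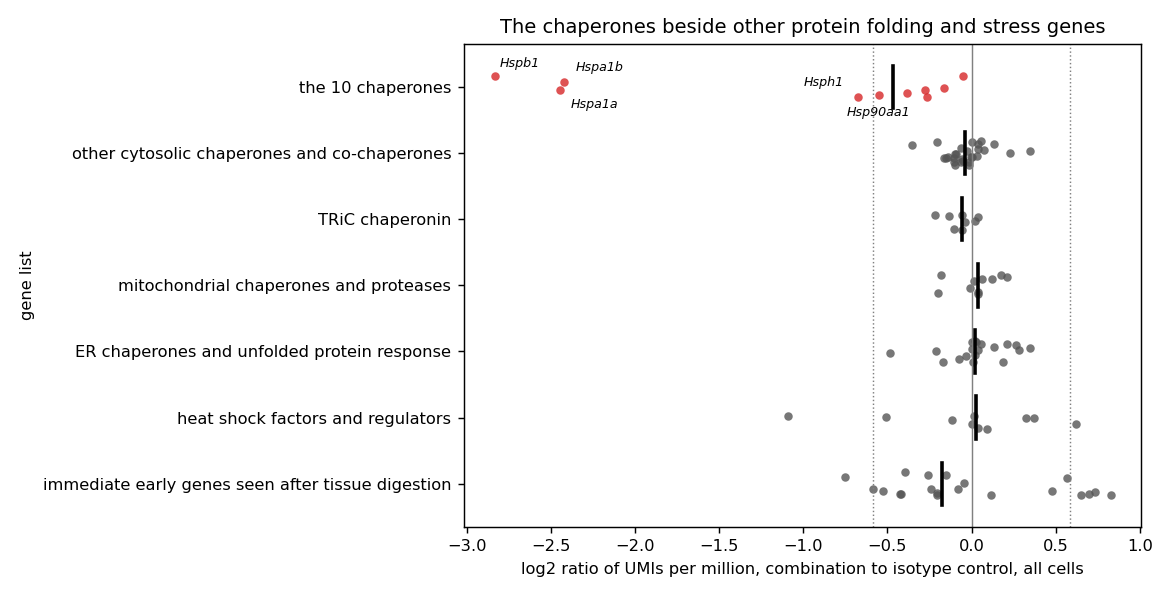
Log2 ratio of CPM, combination to isotype control over all cells, with 1 point per gene for the 10 chaperones and 6 lists of other folding and stress genes. Hspa1a, Hspa1b and Hspb1 lie between −2.83 and −2.42, whereas the folding lists stay between −0.49 and 0.35.

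Genes induced by dissociation were counted beside these values. The summed level of 20 immediate early genes, which rise within minutes of handling, was 7469.5, 6987, 6392 and 7631 CPM, which put the combination highest over all cells. In monocyte-like and macrophage-like cells the sums were 7479.8, 7256, 6530.4 and 7471 CPM, nearly the same in isotype control and the combination. The median log2 ratio of the 20 genes between the combination and isotype control was −0.18, below the −0.08 of all genes. Of the 20 genes 1 was lower in the combination than in isotype control (Klf4, log2 ratio −0.75) and 4 were higher (Egr2 at 0.83, Ier3, Btg1 and Nfkbia). The median share of mitochondrial UMIs per cell was 0.687%, 0.697%, 0.912% and 0.465%, lowest in the combination. The part of handling and of cell quality in the chaperone levels was not tested.

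Against isotype control the HSP70 pair was low in the combination across the classes of cells, whereas against the single-antibody libraries it was not so in all of them. Hspa1a was lower than in isotype control in 9 of 9 classes, with ratios from 0.090 in neutrophil-like cells to 0.339 in monocyte-like cells, and Hspa1b in 9 of 9, from 0.122 in cells like NK cells or ILC1 to 0.513 in cells like mast cells or basophils. Hspb1 was lower in 8 of 9, the exception being the cells like mast cells or basophils, where it had no UMI in any library. These counts of classes set no minimum level. They leave out 54 B-cell-like cells and 196 cells of an unnamed cluster, in which the chaperones were not read apart. The number of classes fell away through the other chaperones, with 4 of 9 for Hsp90aa1 and Hsph1, 2 for Dnajb1 and Hspe1, 1 for Hspd1, 1 lower and 1 higher for Bag3, and 0 for Hspa8. Over the classes the share of genes that were lower ran from 2.65% to 30.6%. It was highest in neutrophil-like cells, which were the 1 low class of Hspd1 and Bag3. A count of 1 is therefore not read as a fall of the gene. Against the single-antibody libraries both HSP70 genes were lower in macrophage-like and monocyte-like cells, with ratios from 0.222 to 0.546. In T-cell-like cells the ratios to the CTLA-4-titled library were 0.713 for Hspa1a and 1.15 for Hspa1b, and in dendritic-like cells 1.39 and 1.27. In neutrophil-like cells the ratios to the FcgRII-titled library were 3.22 and 1.01.

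In macrophage-like cells, the largest class, Hspa1a stood at 482, 414, 429.7 and 95.2 CPM, a ratio of 0.198 (0.194 to 0.202) between the combination and isotype control. Here 5 of the 10 chaperones were lower, where 2.81% of genes were. In monocyte-like cells Hspa1a stood at 199, 145, 168 and 67.3 CPM, a ratio of 0.339 (0.307 to 0.373), and 2 of the 9 chaperones that reached the minimum were lower (4.37% of genes). The 2 classes joined had 5 of 10 lower (2.92%), namely Hspa1a, Hspa1b, Hspb1, Hsp90aa1 and Hsph1. In them Hsp90aa1 passed the limit, at 273, 249, 259.9 and 173 CPM and a ratio of 0.632 (0.621 to 0.644), but not with median-of-ratios scaling (0.681), without the Ctsk-led cluster (0.793) or without the top 10% of cells by chaperone share (0.797). The median log2 ratio of the 8 genes other than the HSP70 pair was −0.48, against −0.10 over all genes of these cells.

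By summed CPM, lymphocytes held lower levels of Hspa1a, with isotype control as the highest library and the combination as the lowest. For Hspa1b the combination was not the lowest library in T-cell-like cells, by the ratio to the CTLA-4-titled library given above. In T-cell-like cells Hspa1a stood at 168, 78.0, 125 and 55.6 CPM, a ratio of 0.332 (0.270 to 0.405), while Hspa8 stood at 833, 797, 923 and 812. The CTLA-4-titled library was close to the combination here, which was not so in macrophage-like cells. In cells like NK cells or ILC1 Hspa1a stood at 181, 46.5, 24.03 and 17.8 CPM, and all 3 antibody libraries were low. In T-cell-like cells 3 of 10 chaperones were lower than in isotype control (6.16% of genes). In NK-like or ILC1-like cells 3 of 10 were (7.47%), and the third gene was Hspb1 in both classes. Against the CTLA-4-titled library the counts in the 2 classes were 0 of 9 (5.55%) and 2 of 9 (3.28%). Against the FcgRII-titled library they were 3 of 10 (8.49%) and 1 of 9 (7.41%). Summed macrophage markers in T-cell-like cells were 9281, 2693, 14410 and 8347 CPM, against 38728, 41413, 42487 and 34036 in macrophage-like cells. In the NK-like or ILC1-like cells they were 7504, 2445, 7974 and 4253. The part of macrophage RNA in the lymphocyte values was not tested.

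Against isotype control the remaining classes held 5 of 10 lower chaperones in the cells with markers of both lymphocytes and macrophages (2.65% of genes). They held 4 of 10 in the cells like fibroblasts, endothelium or tumor cells (6.79%) and 5 of 9 in those like mast cells or basophils (15.7%). In the same order, 2 of 9 (8.43%), 2 of 9 (2.97%) and 2 of 9 (17.7%) were lower than in the CTLA-4-titled library. Against the FcgRII-titled library 3 of 10 (3.62%), 0 of 8 (2.86%) and 0 of 9 (19.4%) were lower. In the cells like mast cells or basophils 5 of 9 were higher than in the FcgRII-titled library (21% of genes). There 2 of 9 were also higher than in the CTLA-4-titled library (18.2%) and 1 of 9 was higher than in isotype control (18.1%). Several of the smaller classes rested on few cells. In neutrophil-like cells 8 of 10 chaperones were lower than in isotype control (30.6% of genes), and Hspa1a stood at 608, 1453, 16.95 and 54.6 CPM. Against the CTLA-4-titled library 8 of 10 were lower (10.6% of genes). Against the FcgRII-titled library 3 of 10 were lower (29.4%) and 1 of 10 was higher (15.3%). Of the 531 Hspa1a UMIs in the CTLA-4-titled library, 74.0% came from 1 cell of 92, and of the 114 in the combination 67.5% came from 1 cell of 466. In dendritic-like cells 4 of 10 were lower than in isotype control (12.7% of genes), with Hspa1a at 194, 33.5, 369 and 46.4 CPM. Against the CTLA-4-titled library 1 of 9 was lower (10.6%), and against the FcgRII-titled library 5 of 10 were (11.4%). No Hspb1 UMI was counted in the combination in dendritic-like, neutrophil-like and NK-like or ILC1-like cells. Set at the limit of 3 UMIs that a count of 0 allows, these levels were at least 9.82-fold, 8.53-fold and 16.5-fold lower than in isotype control, where Hspb1 itself came from 3, 3 and 5 cells. In cells like mast cells or basophils 1 of the 65 isotype control cells held 98.2% of the Hspa1a UMIs, and without the top cell of each library the ratio turned to 3.43 (0.783 to 20.6). The counts of 9 classes above include that class, which rests on this 1 cell. Without the top cells the ratio of Hspa1a stayed low in the other classes, between 0.041 in neutrophil-like and 0.309 in monocyte-like cells.

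The 13 clusters of monocyte-like and macrophage-like cells differed widely in level but little in direction for the HSP70 pair. Hspa1a was lower in the combination than in isotype control in 13 of 13 clusters, with ratios from 0.118 to 0.500, Hspa1b in 12 of 13 and Hspb1 in 12 of 13. The exception for Hspb1 was the dividing cluster led by Ung, Uhrf1 and Ccne2, at a ratio of 1.53 (0.906 to 2.61) from 39 and 26 UMIs. That for Hspa1b was the cluster led by Mmp12, Clmp and Nos2, at a ratio of 0.840. These counts, and the medians over clusters below, set no minimum level. Hspb1 in isotype control ran from 0.502 to 322 CPM over the clusters, so part of its count rests on levels near 0. Hspe1 and Hsph1 were lower in 3 of 13 clusters and Hsp90aa1 in 2 of 13. Hspa8, Dnajb1, Hspd1 and Bag3 were each lower in 1 of 13, and in all 4 genes it was the same cluster.

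That cluster, of macrophage-like cells led by Ctsk, a lysosomal protease, and then by Hspb1, Hspa1a and Hspa1b, was the one in which most of the HSP70 RNA lay, although none of the 10 chaperones had entered the clustering. It held 688, 531, 595 and 492 cells, which were 12.6%, 12.4%, 13.01% and 10.3% of the monocyte-like and macrophage-like cells. Its share was thus lowest in the combination, with a 95% interval of 9.46 to 11.2, against 11.8 to 13.6 in isotype control. It held 61.0%, 63.2%, 66.2% and 50.02% of the UMIs of Hspa1a and Hspa1b of those cells. Hspa1a stood there at 2694, 2406, 2549 and 505 CPM, a ratio of 0.188 (0.182 to 0.193).
All 10 chaperones were lower in the combination than in isotype control inside this cluster, with ratios from 0.188 for Hspa1a to 0.552 for Hspa8. The share of all genes past 1.5-fold was not counted within single clusters, here or below, so these counts have no background beside them. Hsp90aa1 stood at 856, 673, 754 and 267 CPM, a ratio of 0.312 (0.299 to 0.325). Hspa8 stood at 1546, 1349, 1395 and 854, a ratio of 0.552 (0.538 to 0.567), and Dnajb1 at 209, 162, 155 and 104, a ratio of 0.497 (0.462 to 0.535). Bag3 stood at 263, 213, 243 and 123 CPM, Hspd1 at 196, 151, 153 and 73.9, and Hspe1 at 184, 165, 170.1 and 77.1. In this cluster the genes that were within 1.5-fold over all cells were past that limit, and the combination was the lowest library for each of the 10. Without the share over all genes of the cluster, this is not read as particular to the chaperones.

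Outside that cluster the chaperones parted. Over the other 12 clusters the median of the same ratio was 0.295 for Hspa1a, 0.352 for Hspa1b and 0.110 for Hspb1. It was 0.983 for Hspa8, 1.00 for Dnajb1 and 0.982 for Bag3, with 0 of 12 clusters lower for each. Hsph1 (0.903), Hspd1 (0.850), Hsp90aa1 (0.827) and Hspe1 (0.758) lay between. The cluster led by Cmpk2, Rsad2 and Ifit3, genes induced by interferon, was the next in number of lower chaperones, with 6 of 10: Hspa1a at a ratio of 0.118, Hspa1b at 0.077, Hsph1 at 0.379, Hsp90aa1 at 0.590, Hspe1 at 0.663 and Hspb1 with 0 UMIs in the combination and 155 in isotype control.
At a finer clustering (resolution 1.2) there were again clusters led by the same kind of genes, whose cells were not matched to those above. A cluster led by Gdf15, a stress-induced cytokine, held 454, 320, 392 and 236 cells and another led by Ctsk and Mmp12 held 221, 212, 203 and 266, and all 10 chaperones were lower in the combination in each. A small cluster of 83, 65, 49 and 25 cells led by Adm, Hspa1a and Hspa1b had Hspa1a at 1648, 2589, 3539 and 1467 CPM and 5 of 10 lower. Its Hspa1a in the combination was thus close to isotype control and below the single-antibody libraries. Hspa1b stood there at 1992, 2751, 3964 and 1192 CPM, and was lower in the combination than in isotype control.

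**Figure D3:**
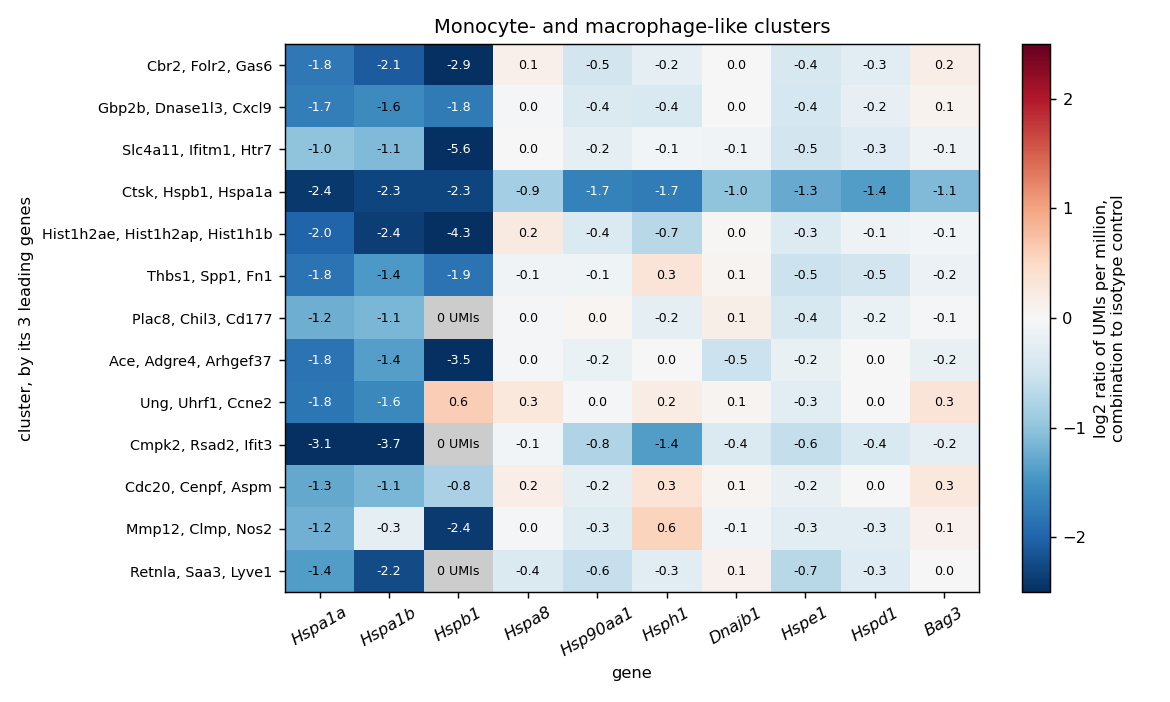
Log2 ratio of CPM, combination to isotype control, for each chaperone (columns) in each of the 13 monocyte-like and macrophage-like clusters (rows, by 3 leading genes), with blue for lower and red for higher and grey where the combination had 0 UMIs. The columns of Hspa1a, Hspa1b and Hspb1 are blue nearly throughout, and the row led by Ctsk, Hspb1 and Hspa1a is blue for all 10 genes.

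Within monocyte-like and macrophage-like cells the HSP70 RNA was held by a minority. In every library most of these cells had no UMI of Hspa1a or Hspa1b (53.5%, 60.4%, 52.0% and 62.7%), and the top 10% of cells held 86.9%, 92.6%, 88.2% and 90.3% of the UMIs of the pair. The 90th percentile over cells was 32.03, 21.3, 24.8 and 2.55 UMIs of the pair per 10000 UMIs of the cell, and the 99th was 252, 228, 232 and 83.1. The combination was the lowest library at both points, and further from the others at the lower of them.
Cells above 32.03 per 10000, the 90th percentile of isotype control, were 10.0%, 8.59%, 9.31% and 2.09% of the class, that is 545, 368, 426 and 100 cells. Of these, 69.0%, 65.5%, 73.5% and 68.0% lay in the Ctsk-led cluster. Within that cluster they were 54.7%, 45.4%, 52.6% and 13.8% of cells, and the median cell held 36.9, 24.5, 37.7 and 0.218 per 10000.

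**Figure D4:**
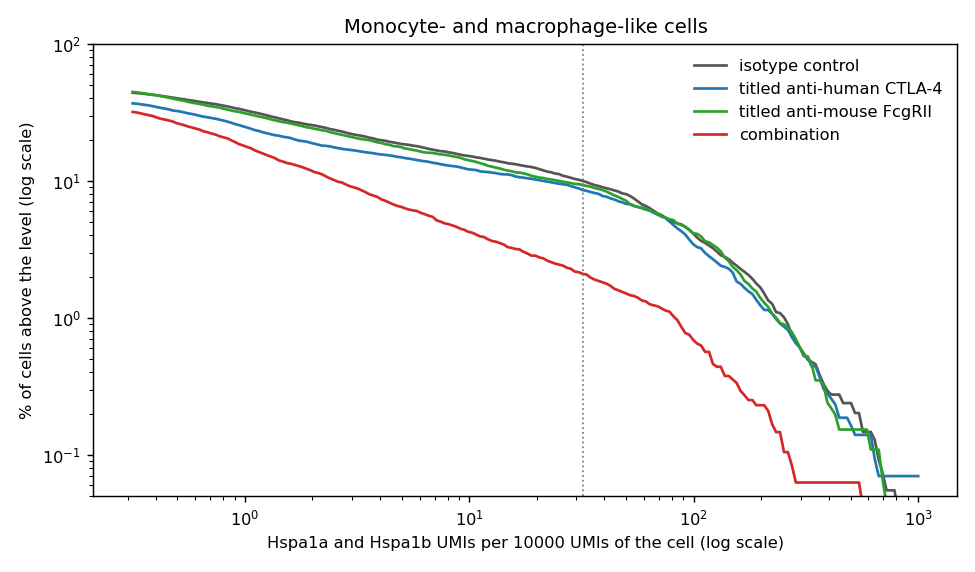
Share of monocyte-like and macrophage-like cells (vertical, log axis) above a given level of Hspa1a and Hspa1b UMIs per 10000 UMIs of the cell (horizontal, log axis), with 1 line per library and a dotted line at the 90th percentile of isotype control. At that level 2.09% of combination cells remain, against 8.59% to 10.0% in the other libraries.

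Cells above and below that level were then read for the other 8 chaperones, whose levels did not set the division. In isotype control the cells above it held 13.8-fold more Hsph1 than the rest, and 11.5-fold, 11.6-fold and 12.6-fold more in the other libraries. The same folds were 5.76, 5.73, 5.17 and 5.16 for Hsp90aa1, 5.27, 5.22, 4.80 and 3.95 for Bag3 and 2.26, 2.19, 2.24 and 1.94 for Hspa8. Cells high in the HSP70 pair were therefore high in the whole group of chaperones in each library, Hspa8 least.
Among the cells above the level, 2 of the 8 were lower in the combination than in isotype control, Hspd1 at a ratio of 0.503 (0.435 to 0.580) and Hspe1 at 0.654 (0.570 to 0.747). Hsph1 stood at a ratio of 0.883 and Hspb1 at 0.888, and Dnajb1 was at 1.25 (1.13 to 1.37). Among the rest, 1 of the 8 was lower, Hspb1 at 0.270 (0.234 to 0.311), and the other 7 lay between Hspe1 at 0.789 and Bag3 at 1.10. The share of all genes past 1.5-fold was not counted in either set. The ratio of Hsph1 was 0.550 over the whole class, 0.883 among the cells above the level and 0.971 among the rest, and that of Hsp90aa1 was 0.632, 0.742 and 0.829. Not every gene moved toward 1 in this way. Hspd1 was at 0.755 over the whole class and 0.503 among the cells above the level, and Dnajb1 at 0.839 and 1.25. Since the division was made on the pair itself and these genes go with it over cells, ratios within either set depend on the division, and nothing is drawn from them.

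**Figure D5:**
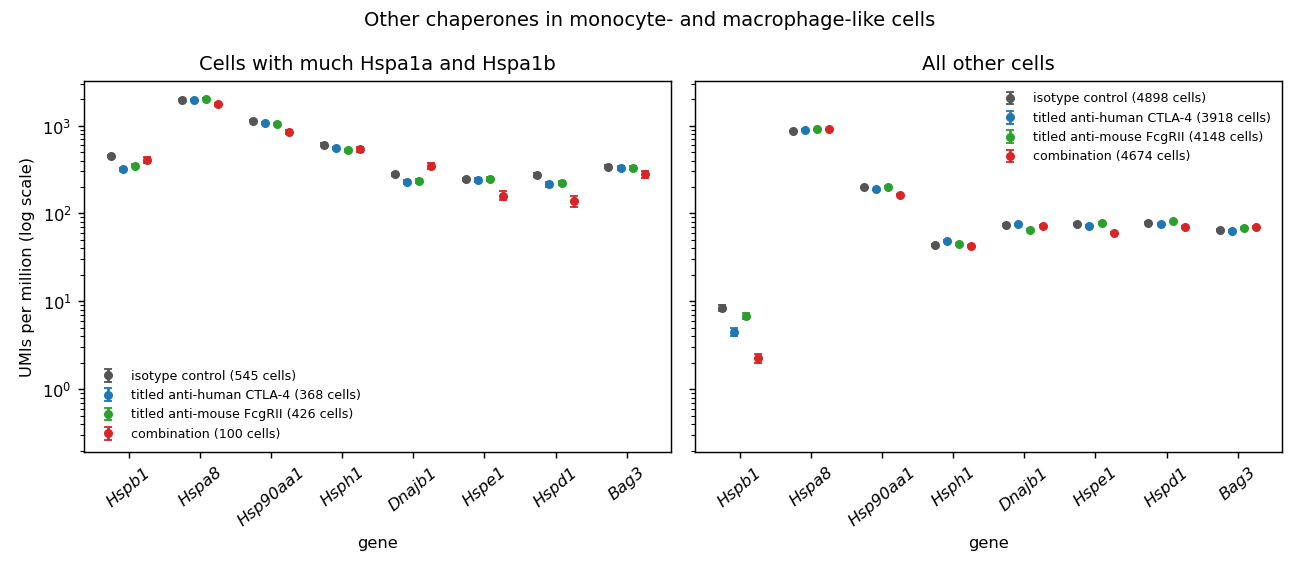
Levels of the 8 other chaperones in CPM on a log axis, in monocyte-like and macrophage-like cells above the 90th percentile of isotype control for Hspa1a and Hspa1b (1 panel) and in the rest (the other panel), with 1 point per library. Between panels Hsph1 differs by 11.5-fold to 13.8-fold.

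The share of cells with a UMI was compared after drawing each cell down to 7022 UMIs, because median depth differed (14654, 17726, 18837 and 20169 UMIs per cell) and the combination was deepest. Shallower cells were left out, 746, 427, 354 and 380 of them. At this depth 35.1% (33.8 to 36.5, exact binomial), 27.7%, 34.1% and 22.04% (20.8 to 23.3) of monocyte-like and macrophage-like cells had a UMI of Hspa1a or Hspa1b, a ratio of 0.627 between the combination and isotype control. Before drawing down the shares were 46.5%, 39.6%, 48.0% and 37.3%. With at least 3 UMIs the shares were 19.9%, 15.1%, 19.0% and 7.69%, and the ratio 0.387. The difference was thus larger for cells with several UMIs than for cells with any.
For Hspb1 4.32%, 3.15%, 3.35% and 0.938% of the cells drawn down had a UMI, so it was a rare transcript in all libraries. For Hsph1 the shares were 25.2%, 26.7%, 26.1% and 22.8%, but with at least 3 UMIs 5.83%, 5.06%, 4.99% and 1.79%. No class of cells in these samples is known to lack HSP70, so no share of background from free RNA could be set beside these values. In NK-like or ILC1-like cells 12.9%, 3.95%, 8.11% and 4.26% of cells drawn down to 2124 UMIs had a UMI of the pair, at median depths of 4360, 4315, 5813 and 5873 UMIs. In T-cell-like cells drawn down, the share with a UMI of the pair was at a ratio of 0.482 between the combination and isotype control. To the CTLA-4-titled and FcgRII-titled libraries the ratios were 1.38 and 0.563, so the CTLA-4-titled library had the lowest share. For Hspa1a alone the ratio to the CTLA-4-titled library was 1.58. Each class was drawn down to its own depth, so shares are not compared between classes.

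Over single cells of the same set, drawn down to that depth, the chaperones went together to different degrees (Spearman rho over 4697, 3859, 4220 and 4394 cells, given as a description, since the genes share the depth and clusters of the cells). Hspa1a and Hspa1b had rho 0.684, 0.677, 0.664 and 0.466, and Hspa1a and Hsph1 0.358, 0.347, 0.299 and 0.113. Both were lowest in the combination, where fewer cells held the RNA. Hspa1a with Hsp90aa1 had a median rho of 0.307 over the libraries, with Hspa8 0.289 and with Hspb1 0.283. Dnajb1 and Bag3, which are targets of the same factor in the textbook response, were the loosest with Hspa1a together with Hspd1 and Hspe1, at 0.135, 0.162, 0.159 and 0.184.

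Cells that express Nos2, the inducible nitric oxide synthase of activated macrophages, were much more frequent in the combination, so the chaperones were read within them. Among monocyte-like and macrophage-like cells with at least 3 Nos2 UMIs (604, 794, 433 and 2407 cells) Hspa1a stood at 542, 486, 739 and 98.7 CPM. Among cells under 3 (4839, 3492, 4141 and 2367 cells) it stood at 443, 372, 380.2 and 86.6. Its ratio against isotype control was 0.182 (0.176 to 0.188) and 0.196 (0.190 to 0.202). Against the FcgRII-titled library the ratios were further apart, at 0.133 with Nos2 and 0.228 without. For Hspb1 the ratios against isotype control were 0.155 and 0.134. For the other 7 chaperones and Hspa1b the ratio was lower among the cells with Nos2, for example 0.523 against 0.678 for Hsp90aa1, 0.667 against 0.907 for Hspd1 and 0.692 against 0.908 for Bag3. The part of the Nos2 cells in the levels over the whole class was not tested.

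Genes whose levels over libraries most resembled those of Hspa1a were taken from 7816 genes with at least 20 CPM, by Pearson r over 20 points, 5 classes in 4 libraries, after centring each class on its own mean. The points share libraries, and r is given with no p. Hspb1 had r 0.917, Hsp90aa1 0.863, Hsph1 0.723 and Hspd1 0.720 among the chaperones, beside 0.969 for the near copy Hspa1b, and Dnajb1, Bag3, Hspa8 and Hspe1 had 0.599, 0.578, 0.567 and 0.512. Outside the group the nearest were Ppp1r15a (0.910), which restarts translation after stress, Iffo2 (0.894), Fam91a1 (0.891), Galnt4 (0.888) and Plk3 (0.872), a stress-responsive kinase. Polg2, Oxr1, Map1lc3b, Utp14a and Lrp6 followed, from 0.871 to 0.851. Ppp1r15a stood at 116, 95.3, 89.2 and 82.1 CPM over all cells, a log2 difference of −0.50 between the combination and isotype control, which was far smaller than that of Hspa1a.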

How the data were processed

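Single-cell RNA was measured with fixed-cell probes (10x Flex) in 4 libraries, 1 per group. The deposited values are raw counts of UMIs for each gene in each cell, which the authors made with Cell Ranger (7.2.0 in the file headers, 7.0.0 in the submitters' processing notes) on mm10, and hold barcodes called as cells only. From these counts, cells with under 500 genes (67) or over 10% mitochondrial UMIs (48) were left out. Scrublet (scanpy 1.11.5) called only 1, 3, 1 and 2 doublets, which is too few for the method to have worked, so the top 5% of doublet scores in each library (1409 cells) were left out in its place.

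Cells were normalized with SCTransform (sctransform 0.4.2), integrated across libraries by anchors on 3000 features and clustered on 30 principal components at resolution 0.8 (Seurat 5.3.0, R 4.3.3), with the chaperones and the listed folding and stress genes kept out of the features. Clusters were called X-like from markers chosen before the clusters were made, by a rule set after they were seen (at least 3 markers detected in 25% of cells). UMIs were summed per library and class and scaled per 1000000 (CPM). Intervals are exact 95% Poisson, binomial or conditional binomial limits. They cover counting error only, and since UMIs of these genes clump in few cells they understate the error. The median library depth was 14836 to 19115 UMIs per cell. Genes with at least 10 CPM in either library of a pair formed the background.

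All 10 chaperones are described. Of each other list the genes with the highest and lowest ratio were named, and the 10 genes most like Hspa1a by Pearson r. Beyond this rule Hsf1, the other genes past 1.5-fold and the clusters set apart in the text were chosen after their values were seen. The chaperones and lists were chosen with earlier results of these data known. The summaries were tested on simulated data, drawn as independent Poisson counts for each gene of a library. Such counts do not clump in few cells, so the simulation says nothing of that error. Cell filters, doublets, scaling, weighting of cells, makeup of the library, clustering and the fold limit were varied, and 2 alternatives were added after seeing the data.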

Additional observations from a re-analysis of the deposited data

Results flagged for a closer look

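In 8 comparisons a chaperone was higher in 1 class of cells and lower in another under the same contrast, with counting intervals on opposite sides of 1. None of these differences was tested, and 1 cell held between 40.3% and 92.8% of the UMIs behind each higher level. Hspa1a in the combination against the FcgRII-titled library was at a ratio of 3.22 in neutrophil-like cells, where 1 cell held 67.5% of 114 UMIs, and 0.126 in dendritic-like cells. In the CTLA-4-titled library against isotype control, neutrophil-like cells had ratios of 2.39 for Hspa1a (1 cell held 74.0% of the UMIs, and dendritic-like cells were at 0.172), 27.9 for Hspb1 (92.8%, with monocyte-like cells at 0.148) and 3.75 for Bag3 (85.0%, with T-cell-like cells at 0.536). In the FcgRII-titled library against isotype control, dendritic-like cells had ratios of 1.90 for Hspa1a (1 cell held 46.1% of the UMIs, and neutrophil-like cells were at 0.0279), 2.19 for Hspa1b (40.3%, with NK-like or ILC1-like cells at 0.228), 1.74 for Hspb1 (72.5%, with 0 UMIs in NK-like or ILC1-like cells) and 4.34 for Hsph1 (66.8%, with NK-like or ILC1-like cells at 0.662). These classes held 50 to 115 neutrophil-like cells outside the combination and 99 dendritic-like cells in the FcgRII-titled library.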

How the results depend on the processing

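The counts, the median of the 8 other chaperones and the log2 ratios of Hspa1a and Hspa1b kept their direction under the alternatives run, whereas Hspa8 and Bag3 did not keep theirs under each of them. The count of chaperones lower in the combination than in isotype control over all cells was 4 and lay between 3 and 5 under the alternatives. Where it was 5, the added gene was Hsp90aa1. In monocyte-like and macrophage-like cells it was 5 and became 3 at a 2-fold limit, 3 without the Ctsk-led cluster and 3 without the top 10% of cells by chaperone share, the last 2 being added after seeing the data. Hsp90aa1 and Hsph1 were the genes lost there, and with median-of-ratios scaling the count was 4, without Hsp90aa1. The median log2 ratio of the 8 other chaperones was −0.33, and became −0.24 with median-of-ratios scaling, −0.51 as a mean over cells, −0.46 without the mixed and stromal or tumor clusters and −0.23 without the Ctsk-led cluster. The log2 ratio of Hspa1a was −2.45 and became −2.36 with median-of-ratios scaling, −2.31 as a mean over cells, −2.82 without the top 1% of cells, −2.34 standardized by cluster, −2.30 without the mixed and stromal or tumor clusters, −2.35 without the Ctsk-led cluster and −1.95 without the top 10% of cells. That of Hspa1b was −2.42 and became −2.33, −2.08, −2.86, −2.33, −2.26, −2.39 and −2.11 under the same alternatives in the same order, and −2.39 with no cells left out by doublet score. The ratio of shares of cells with a UMI of the pair was 0.627, 0.802 without drawing down and 0.387 with at least 3 UMIs. The cause of these shifts was not tested, except that those which leave out cells or clusters rest on fewer cells by construction. No paired analysis was possible because each group is 1 library. The log2 ratio of Bag3 and Hspa8 over all cells ran from −0.47 to 0.01 and from −0.18 to 0.04 over the alternatives. Depth limits Hspb1 in dendritic-like, neutrophil-like and NK-like or ILC1-like cells, where 0 to 5 cells of a library held it.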
